A study of Mus musculus with 13 samples.

Results

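The BCL2 family of survival and death genes was described across 6 spleen leukocyte populations of the mouse. The members were 10 genes named by symbol: the anti-apoptotic Bcl2, Bcl2l1 (BCL-XL) and Mcl1, the effectors Bax and Bak1, and the BH3-only genes Bcl2l11 (BIM), Bid, Bad, Pmaip1 (NOXA) and Bbc3 (PUMA). A probe set annotated to the gene alone was at hand for 9 of the 10, among 18195 genes with such a probe set, and Bax was not analysed here. These 9 genes had 29 probe sets, and each gene was read from the probe set with the highest mean over all arrays, the others serving as a check. Pmaip1 and Bbc3 had no other probe set. All 9 passed the filter on low values, which kept 9380 genes.

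The 13 Affymetrix Mouse Genome 430 2.0 arrays came from untreated C57BL/6 mice: 2 each of plasmacytoid dendritic cells (pDCs), CD8α conventional dendritic cells (cDCs), CD11b cDCs, natural killer (NK) cells and CD8 T cells, and 3 of B cells. The DCs were sorted as lineage-negative CD11c+ cells with high 120G8 (pDCs), or CD11c-high cells carrying CD8α or CD11b with little or no 120G8, and NK cells as NK1.1+ TCRβ-. Spleens of 10 to 15 mice went into each DC array and of 6 to 10 into each NK array. B cell replicates 1, 2 and 3 came from 3, 2 and 1 mice, and a CD8 T cell array came from 1 mouse. Mice were 6 to 8 weeks old on the CD8 T cell arrays and CD8α cDC replicate 1, and 6 weeks on B cell replicates 2 and 3; the labels of the other arrays give no age. Only B cell replicates 2 and 3 carry the description follicular. The p-values measure the spread between these arrays.

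BCL2 family proteins meet on the outer mitochondrial membrane. Anti-apoptotic members hold the effectors BAX and BAK in check, BH3-only proteins neutralise the anti-apoptotic members or activate the effectors, and active effectors release cytochrome c, which starts the caspase cascade. In leukocytes this balance is known to set cell lifespan: BCL2 sustains naive lymphocytes, MCL1 is required by many lineages, and BIM removes lymphocytes deprived of cytokine.

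The arrays differed in ways that touch the results. Median signal was 13.5 to 20.8 and 29.1 to 34.3% of the probe sets reached 50. The 3' to 5' ratio of the Gapdh control, which rises when cDNA is short, was 23.9 and 11.2 on the NK arrays and 3.46 to 6.30 on the others. B cell replicate 1 stood apart: its correlation with replicates 2 and 3 was 0.934 and 0.935, against 0.979 between those 2. Its summed signal of 5 plasma cell markers was 9713 against 843 and 1261, that of 5 neutrophil markers was 1291 against 107 and 440.5, and that of 12 immediate-early and stress genes was 45631 against 10804 and 11039. The markers of each labelled population had their highest sum in that population. All 5 CD8 T cell markers lay below 20 on the arrays of both cDC subsets. Their sum was 1122 to 1361 in pDCs, against 10092 to 11918 in CD8 T cells. The sum of 4 NK markers was 2596 to 2796 in pDCs, 2158 to 2429 in CD11b cDCs and 171 to 305 in CD8α cDCs. In NK cells that sum was 31059 to 32081. The macrophage and monocyte sum was 4932 to 5435 in CD11b cDCs and at most 891 elsewhere. The source of these signals in DCs was not tested. Sex-linked transcripts went against the label on 3 arrays: the CD8 T cell arrays, labelled female, had Xist at 0.963 and 0.877 and Eif2s3y at 689.9 and 968, and B cell replicate 2, labelled male, had Xist at 4272. The DC arrays shared no scan period and no chip lot with the lymphocyte arrays, and the CD8 T cell arrays shared none with any other population, so these cannot be told apart from cell family or from CD8 T cells. Sex by transcripts also went with cell family on all arrays but B cell replicate 2. The DC arrays had Xist at 1539 to 4503 and Eif2s3y at 8.51 or less. The lymphocyte arrays other than B cell replicate 2 had Xist at 1.05 or less and Eif2s3y at 346 to 968. The part of sex in the differences between DCs and lymphocytes was not tested.

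The stretches upstream of the start sites of Bcl2, Bcl2l11 and Bak1 are shown because the first pair were lower in DCs and Bak1 was higher. They are the 250 bases before the most upstream annotated start, 5′ to 3′ along the gene, from RefSeq on build GRCm38.p6. Capitals mark GGGCGG (GC box) and GTAAACA (FOXO motif) read on both strands.
Bcl2, chr1:106714291-106714540, minus strand: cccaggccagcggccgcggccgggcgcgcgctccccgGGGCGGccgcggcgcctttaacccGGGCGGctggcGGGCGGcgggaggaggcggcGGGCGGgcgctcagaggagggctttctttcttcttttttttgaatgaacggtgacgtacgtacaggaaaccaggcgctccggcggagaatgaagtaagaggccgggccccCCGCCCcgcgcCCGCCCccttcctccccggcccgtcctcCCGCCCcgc
Bcl2l11, chr2:128125788-128126037, plus strand: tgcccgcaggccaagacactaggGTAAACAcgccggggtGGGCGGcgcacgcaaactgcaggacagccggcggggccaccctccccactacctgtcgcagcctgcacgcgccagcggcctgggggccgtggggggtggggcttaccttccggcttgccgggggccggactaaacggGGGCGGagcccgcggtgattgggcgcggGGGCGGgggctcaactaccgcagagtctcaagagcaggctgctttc
Bak1, chr17:27028628-27028877, minus strand: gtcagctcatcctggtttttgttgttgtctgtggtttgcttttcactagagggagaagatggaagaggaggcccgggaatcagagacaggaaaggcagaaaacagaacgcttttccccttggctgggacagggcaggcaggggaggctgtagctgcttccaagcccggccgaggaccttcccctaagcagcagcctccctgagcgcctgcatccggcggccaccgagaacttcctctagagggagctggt

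The Bcl2 stretch held 7 GC boxes and the Bcl2l11 stretch held 3, and a GC box was present in 32.7% of 32851 mouse stretches of the same length. The Bcl2l11 stretch also held 1 FOXO motif, present in 3.17% of all stretches, and Bak1 held neither. GC content was 74.8% for Bcl2, 72.0% for Bcl2l11 and 58.4% for Bak1, with a median of 52.4% over all stretches. The stretch of Pmaip1, also higher in DCs, is not reported here. The other members not shown did not divide in the same way. Of those lower in DCs, Bcl2l1 held 0 GC boxes at 47.6% GC and Bbc3 held 5 at 76.4%. Bid, higher in DCs at the edge of the threshold, held 3 at 63.6%. Bad, not called, held 3 at 62.8%, and Mcl1, whose direction depended on the probe set, held 1 at 64.4%. Also searched, both strands, were CCGGAAGT (ETS), CACGTG (E-box), TGACG (part of the CRE) and CCAAT (NF-Y box), with background shares of 2.88, 6.02, 17.8 and 33.8%. TGACG occurred once in the Bcl2 stretch and CCAAT once in that of Bcl2l11. A match was counted wherever its letters occurred, whether or not it shared bases with another match. These are matches of letters in a window, and no binding was measured.

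Bcl2, Bcl2l1 and Bcl2l11 were lower in DCs than in lymphocytes, and Pmaip1 and Bak1 were higher. Mcl1 was also called lower by the probe set used, but was called higher by 1416881_at (0.51, adjusted p = 0.0115). Of the 9 genes, 8 differed between the 3 DC populations and the 3 lymphocyte populations, 3 higher in DCs and 5 lower, where 63.6% of all genes tested were called (31.3% higher and 32.3% lower). Called means an adjusted p under 0.05 in limma, with each family taken as the mean of its 3 populations and log2 values floored at a signal of 20. Differences below are on that log2 scale with their standard errors, and adjusted p values are from limma with Benjamini-Hochberg adjustment, in general over 9380 genes. Those of probe sets other than the one used were adjusted over all probe sets. Those of population pairs were adjusted over genes and pairs together. The DC and lymphocyte arrays did not overlap for 4 of the 9 genes (Bcl2, Bcl2l1, Bcl2l11 and Pmaip1), as was so for 11.7% of all genes. The median difference of the 9 genes was -0.39, against -0.02 over all genes. Mean RNA per cell cannot be told apart from the share of cells that hold it, and signals of different probe sets are not compared with each other.

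**Figure D1:**
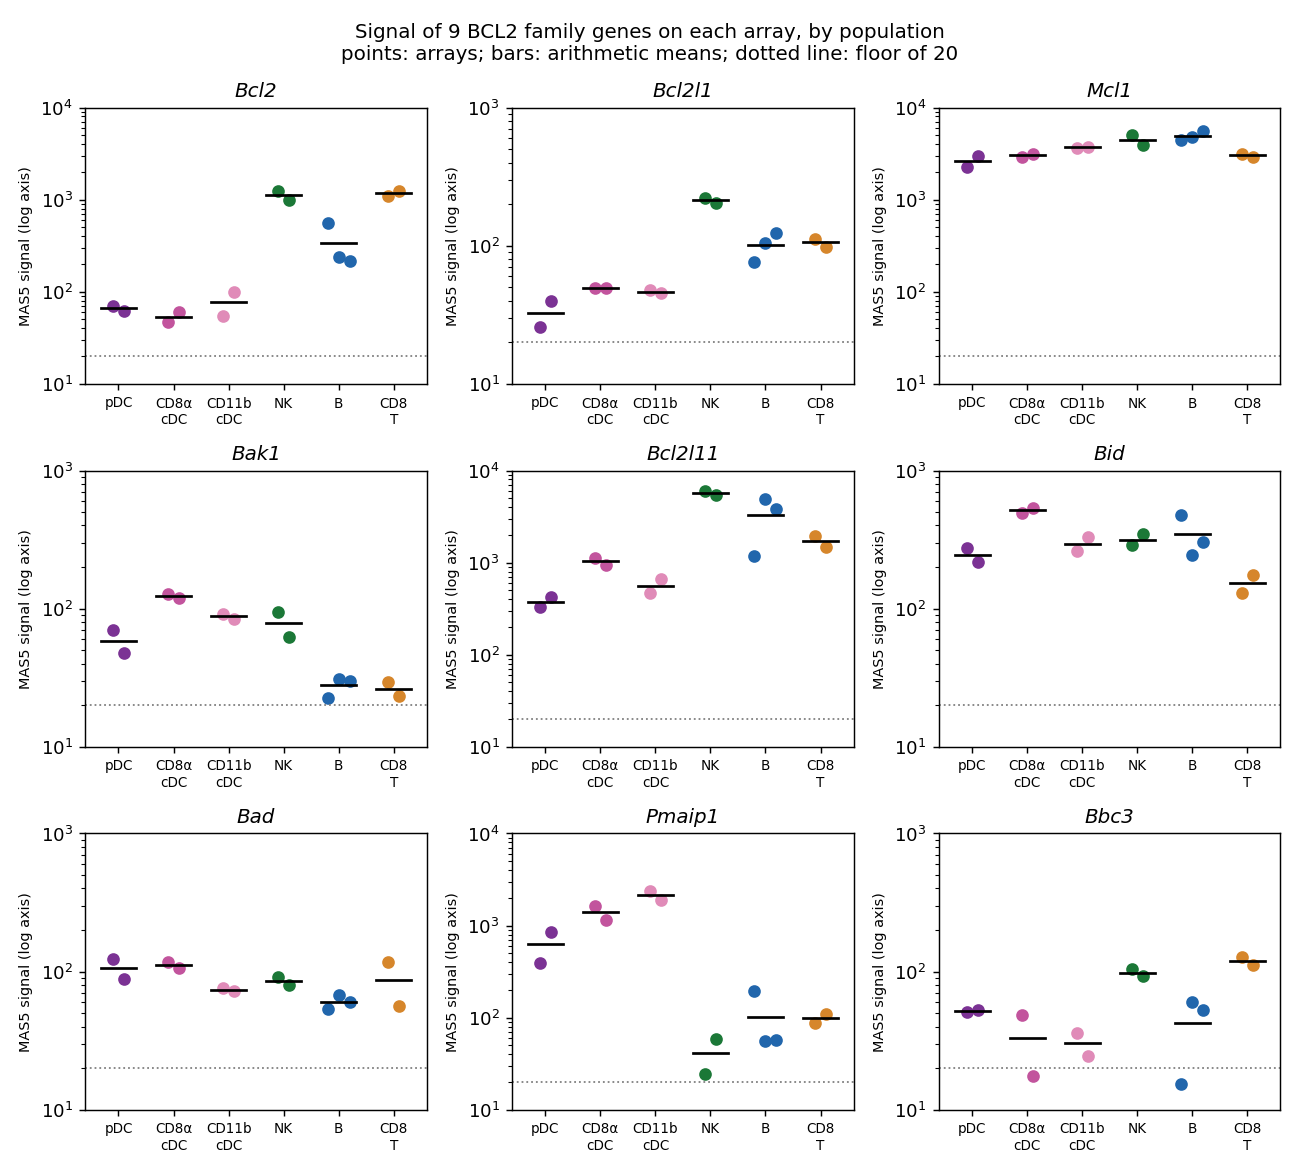
MAS5 signal (log axis) of the 9 genes on each of the 13 arrays, grouped by population, with 1 point per array, black bars for arithmetic means and a dotted line at the floor of 20. DC points lie below lymphocyte points for Bcl2, Bcl2l1 and Bcl2l11 and above them for Pmaip1, and B cell replicate 1 stands off from the other B cell arrays in several panels.

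Bcl2 encodes the founding anti-apoptotic member. Its signal was 70.3 and 61.7 in pDCs, 47.0 and 60.6 in CD8α cDCs and 54.3 and 99.3 in CD11b cDCs. In lymphocytes it was 1233 and 995.5 in NK cells, 554.9, 240.02 and 214.9 in B cells and 1100.4 and 1239 in CD8 T cells. The highest DC array thus lay below the lowest lymphocyte array. DCs were lower than lymphocytes (-3.53, SE 0.23, adjusted p = 2.89e-07), an 11.5-fold difference. Among lymphocytes, B cells were lower than the mean of NK and CD8 T cells by the probe set used (-1.89, SE 0.32, adjusted p = 8.00e-04), a call that 1440770_at (-0.98, adjusted p = 0.237) and 1443837_x_at (-1.19, adjusted p = 0.0726) did not give. The order of the means was CD8 T, NK, B, CD11b cDC, pDC and CD8α cDC cells. Of its 5 neighbouring pairs, NK against B cells and B cells against CD11b cDCs were called, and the other 3 were not. All 5 probe sets of Bcl2 were lower in every DC array than in every lymphocyte array, with differences of -2.52 to -4.21. Within lymphocytes they disagreed: 1440770_at and 1443837_x_at set NK cells below CD8 T cells (-2.10 and -2.01, adjusted p = 0.0556 and 0.0260 over all probe sets), against -0.08 (adjusted p = 0.943) for the probe set used. B cell replicate 1 was the highest B cell array by the probe set used, and without it the B cell difference was -2.32, but it was the lowest by 1440770_at (124 against 692 and 441.6) and by 1443837_x_at (70.7 against 232 and 276).

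Bcl2l1 encodes BCL-XL, which guards mitochondria much as BCL2 does. Its signal was 25.9 and 39.5 in pDCs, 49.5 on both CD8α cDC arrays and 47.9 and 45.3 in CD11b cDCs. Among lymphocytes it was 222 and 205 in NK cells, 76.0, 104.003 and 123 in B cells and 113 and 98.6 in CD8 T cells. The DC arrays all lay below the lymphocyte arrays, and the NK arrays were the highest. DCs were lower than lymphocytes (-1.64, SE 0.14, adjusted p = 2.22e-06). NK cells exceeded CD8 T cells by 1.02 (SE 0.25, adjusted p = 0.0087), and B cells were below the mean of both by 0.60 (-0.60, SE 0.19, adjusted p = 0.0292), which without B cell replicate 1 was -0.41 (adjusted p = 0.0832). pDCs were lower than cDCs by 0.59 without passing the test (-0.59, interval -1.06 to -0.11, adjusted p = 0.0547). In the order NK, CD8 T, B, CD8α cDC, CD11b cDC and pDC cells, the neighbours NK and CD8 T cells and B cells and CD8α cDCs differed and the other 3 pairs were not called. Its other 3 probe sets stayed below 20 on all arrays and checked nothing.

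Mcl1 encodes a short-lived anti-apoptotic protein. By the chosen probe set it varied 1.87-fold among the population means, from 2274 and 3010.0 in pDCs to 4418, 4793 and 5555 in B cells. NK cells had 4974 and 3946, CD11b cDCs 3672 and 3699.8, CD8α cDCs 2939 and 3111, and CD8 T cells 3133 and 2908. DCs and lymphocytes overlapped, and the difference was small but called (-0.39, SE 0.11, adjusted p = 0.0093). None of the neighbours in its order (B, NK, CD11b cDC, CD8α cDC, CD8 T and pDC cells) were called. The order of Mcl1 depended on the probe set. Its 6 probe sets fell apart: 1437527_x_at, 1456243_x_at and 1456381_x_at placed NK cells above CD8 T cells (0.55, 0.84 and 0.26), while 1448503_at and 1416881_at placed NK cells lowest of all populations and below CD8 T cells (-1.31, adjusted p = 5.48e-04, and -0.96, adjusted p = 0.0156), and 1416880_at gave -0.12. The DC difference also turned, to 0.51 with 1416881_at (adjusted p = 0.0115) and 0.025 with 1448503_at. With 1416880_at it was -0.19 and not called (adjusted p = 0.118). Only the probe sets with the suffix x_at, among them the one used, were called lower in DCs. The NK arrays are those with the high Gapdh 3' to 5' ratio, and its part in the disagreement was not tested. B cells exceeded the mean of NK and CD8 T cells with every one of the 6 probe sets (0.42 to 0.87), 5 of them called over all probe sets; with the probe set used, this difference (0.42, SE 0.15, adjusted p = 0.0446) stayed called in 15 of 29 alternatives.

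**Figure D2:**
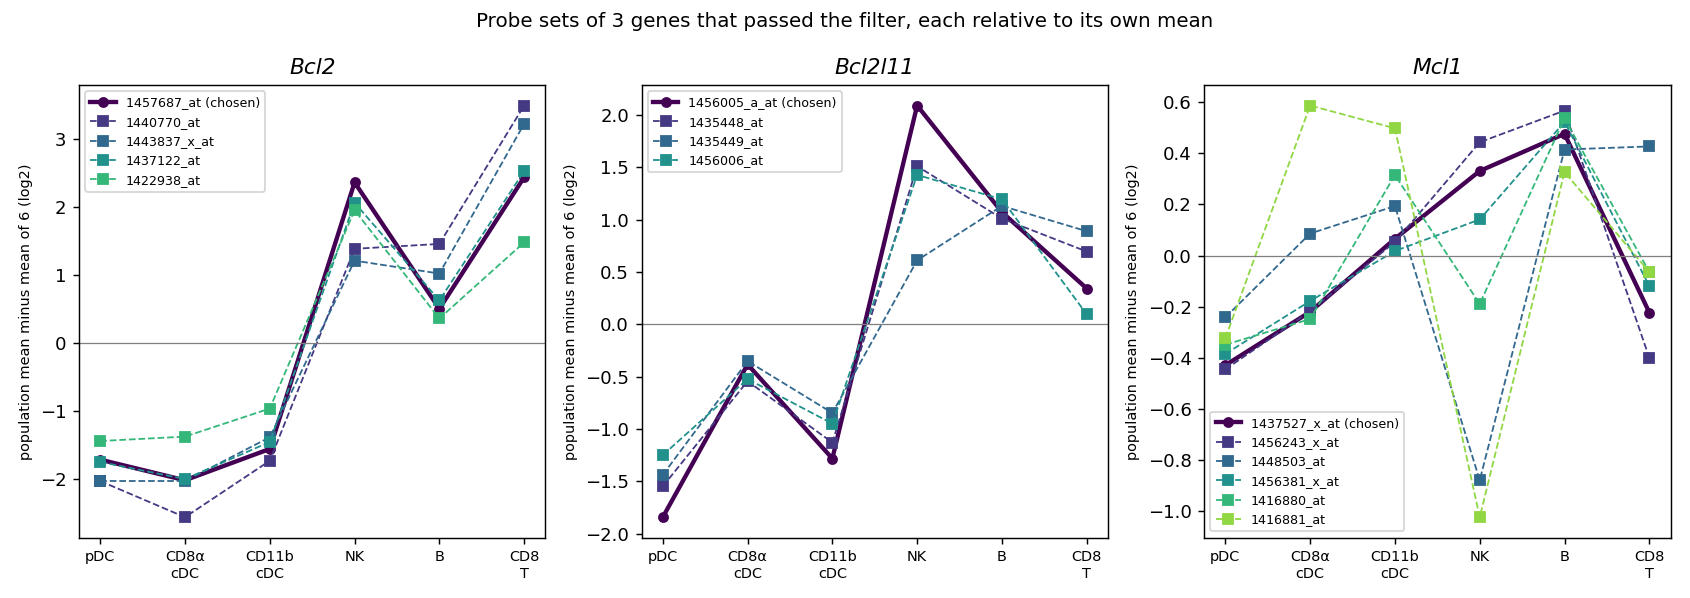
Log2 population means of the probe sets that passed the filter for Bcl2 (5), Bcl2l11 (4) and Mcl1 (6), each minus its own mean over the 6 populations, with the probe set used drawn solid. Bcl2 and Bcl2l11 lie below 0 in all DC populations for every probe set, whereas the Mcl1 probe sets diverge in NK cells, from 0.44 to -1.02.

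Bak1, the effector measured, encodes BAK, which forms pores in the outer membrane. Signals were 69.7 and 47.6 in pDCs, 128 and 119.6 in CD8α cDCs and 91.9 and 84.2 in CD11b cDCs. NK cells had 94.8 and 62.9, but values were 22.7, 31.2 and 29.9 in B cells and 29.4 and 23.5 in CD8 T cells. B and CD8 T cells were thus close to the floor of 20, and NK cells overlapped the DCs. DCs exceeded lymphocytes by 1.16 (SE 0.15, adjusted p = 4.54e-05), and by 1.67 without the NK arrays. Within DCs, pDCs were lower than cDCs (-0.86, SE 0.22, adjusted p = 0.0117), and the subsets of cDCs were not separated (0.49, interval -0.08 to 1.07, adjusted p = 0.229). NK cells exceeded CD8 T cells by 1.56 (SE 0.26, adjusted p = 9.84e-04), which stayed called under every one of the 24 alternatives that gave a value. Of the neighbours in its order, only pDCs against B cells were called. The other probe set of Bak1, 1425716_s_at, reached at most 20.2 on any array and checked nothing.

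Bcl2l11 encodes BIM, a BH3-only protein that binds all anti-apoptotic members. Signals were 332 and 423 in pDCs, 1115 and 952 in CD8α cDCs and 464 and 658 in CD11b cDCs. Among lymphocytes it was 6037 and 5429.7 in NK cells, 1193, 4951 and 3813 in B cells and 1957 and 1483 in CD8 T cells. The lowest lymphocyte value, B cell replicate 1, lay just above the highest DC value. DCs were lower than lymphocytes (-2.34, SE 0.29, adjusted p = 4.54e-05), and the difference was -2.55 without B cell replicate 1. All 4 probe sets that passed the filter were called lower in DCs (-1.76 to -2.34), with no overlap between the families. NK cells exceeded CD8 T cells by 1.75 (SE 0.52, adjusted p = 0.0229), except with 1435449_at, which gave -0.28. None of the neighbours in its order (NK, B, CD8 T, CD8α cDC, CD11b cDC and pDC cells) were called. Without B cell replicate 1, CD8α cDCs exceeded CD11b cDCs by 0.90 with an adjusted p of 0.0166, against 0.282 with it; the fit pools the spread over all populations.

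Bid encodes the BH3-only protein that caspase 8 cleaves, linking death receptors to mitochondria. Its highest signals were 496 and 533 in CD8α cDCs and its lowest 129 and 175 in CD8 T cells, with 480.4, 247 and 306 in B cells, 288 and 345 in NK cells, 263 and 328 in CD11b cDCs and 274 and 218 in pDCs. The families overlapped, and the difference was at the edge of the threshold (0.41, SE 0.17, adjusted p = 0.0490); it stayed called in 5 of 26 alternatives and was 0.044 without both CD8 T cell arrays. NK cells exceeded CD8 T cells by 1.07 (SE 0.30, adjusted p = 0.0160). CD8α cDCs exceeded CD11b cDCs by 0.81 (SE 0.30, adjusted p = 0.0857), and over the 15 population pairs that pair passed the threshold (adjusted p = 0.0492). No neighbours in the order CD8α cDC, B, NK, CD11b cDC, pDC and CD8 T cells were called.

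Bad encodes a BH3-only protein kept inactive by survival kinases. It was the only member not called in any of the 5 comparisons nor in the F test over 6 populations (adjusted p = 0.0811), where 8 of the 9 genes and 82.8% of all genes were called. Of its 15 pairs, B cells were called lower than pDCs and than CD8α cDCs (adjusted p = 0.0377 and 0.0238). Signals ranged from 54.0 in B cell replicate 1 to 124 in pDC replicate 1, and the CD8 T cell arrays were at 117 and 56.7. DCs and lymphocytes differed by 0.35 (interval -0.02 to 0.72, adjusted p = 0.0931). Its other probe set, 1416583_at, gave 0.89 (adjusted p = 0.0023) over all probe sets.

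Pmaip1 encodes NOXA, a BH3-only protein known to counter MCL1. It had the widest range of the 9 genes, 56.2-fold between CD11b cDCs and NK cells, wider than 96.9% of the genes tested. Signals were 396.0 and 851 in pDCs, 1640 and 1140.2 in CD8α cDCs and 2377 and 1895 in CD11b cDCs. Among lymphocytes it was 24.5 and 58.2 in NK cells, 194, 55.9 and 57.0 in B cells and 86.6 and 110.4 in CD8 T cells. Every DC array exceeded every lymphocyte array. DCs were higher by 4.13 (SE 0.34, adjusted p = 1.78e-06), a 17.5-fold difference, and the difference stayed called in all 26 alternatives. None of these alternatives used another probe set, since Pmaip1 had no other. pDCs were lower than cDCs (-1.55, SE 0.53, adjusted p = 0.0405), a call lost in 15 of 27 alternatives. In the order CD11b cDC, CD8α cDC, pDC, CD8 T, B and NK cells, the neighbours pDCs and CD8 T cells differed (adjusted p = 0.00633) and the other 4 pairs were not called. The summed signal of 12 immediate-early and stress genes was also higher on the DC arrays than on the lymphocyte arrays other than B cell replicate 1: it was 46984 to 64845 in cDCs, 35959 to 42383 in pDCs, 23968 to 32024 in NK cells and 13360 to 19728 in CD8 T cells. Among lymphocytes the order differed, since NK cells had a higher sum than CD8 T cells and lower Pmaip1. Of the 12, 9 were called in the DC comparison, all higher in DCs, where 31.3% of all genes were called higher. B cell replicate 1, with 45631, exceeded both pDC arrays in that sum but had Pmaip1 at 194. The part of this signature in Pmaip1 was not tested.

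**Figure D3:**
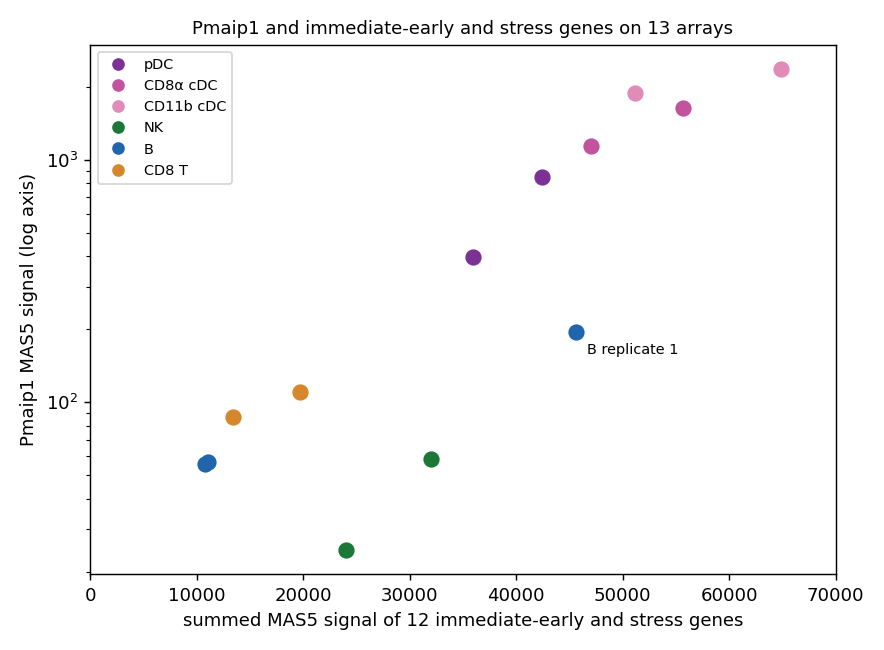
Pmaip1 signal (log axis) against the summed signal of 12 immediate-early and stress genes on each of the 13 arrays, coloured by population. DC arrays lie at 35959 or more in the sum and at 396.0 or more for Pmaip1. B cell replicate 1 has a sum of 45631 and a Pmaip1 signal of 194. Within each population the arrays have the same order on both axes.

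Bbc3 encodes PUMA, a BH3-only target of p53. Signals were low: 50.7 and 52.9 in pDCs, 48.5 and 17.7 in CD8α cDCs and 36.2 and 24.3 in CD11b cDCs. Among lymphocytes it was 105 and 92.2 in NK cells, 15.3, 59.9 and 52.5 in B cells and 129 and 112 in CD8 T cells. DCs were lower than lymphocytes (-1.10, SE 0.28, adjusted p = 0.0061), although the families overlapped at the B cell arrays. Without both CD8 T cell arrays the difference was -0.78 and no longer called (adjusted p = 0.0736). B cells were lower than NK and CD8 T cells (-1.45, SE 0.39, adjusted p = 0.0128), and by -0.95 without B cell replicate 1 (adjusted p = 0.0256). No neighbours in the order CD8 T, NK, pDC, B, CD8α cDC and CD11b cDC cells were called. The lower values lie near the floor of 20, which limits folds.

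Fewer members were called in the comparisons within families. Between pDCs and cDCs 2 of 9 genes were called, Bak1 and Pmaip1, both lower in pDCs, against 36.7% of all genes (17.7% higher and 19.1% lower). Between CD8α and CD11b cDCs none of the 9 was called, against 19.5% of all genes (8.96% higher and 10.6% lower in CD8α cDCs). Bid was at an unadjusted p of 0.0203, and the intervals reached from -1.99 to 2.06. Both comparisons within DCs lay inside a single chip lot and scan period. Between B cells and the mean of NK and CD8 T cells 5 were called (Mcl1 higher, Bcl2, Bcl2l1, Bak1 and Bbc3 lower), against 37.8% (17.7% higher and 20.1% lower in B cells). Between NK and CD8 T cells 5 were called, all higher in NK cells (Bcl2l1, Bcl2l11, Mcl1, Bak1 and Bid), against 38.1% (21.5% higher and 16.6% lower). Of these, Mcl1 was called lower in NK cells by 1448503_at and 1416881_at and stayed called and higher in 9 of 29 alternatives, and Bcl2l11 stayed called in 18 of 27. The Gapdh 3' to 5' ratio was 23.9 and 11.2 on the NK arrays and 3.46 and 3.96 on the CD8 T cell arrays, and its part was not tested. Over the 15 population pairs 71 of 135 member and pair combinations were called, against 41.4% over all genes, with 11 each for Bcl2 and Bcl2l1, 10 each for Bcl2l11 and Pmaip1 and 2 for Bad. The counts within families moved with single arrays. Between pDCs and cDCs 1 gene was called when any 1 DC or CD8 T cell array was left out, and 5 without B cell replicate 1, which also gave 2 between the cDC subsets. Between NK and CD8 T cells 2 were called without NK replicate 1 or either CD8 T cell array, and 3 without NK replicate 2. Between B cells and the others 3 were called without either NK array and 2 without CD8 T cell replicate 1. These comparisons share populations and the estimate of spread.

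**Figure D4:**
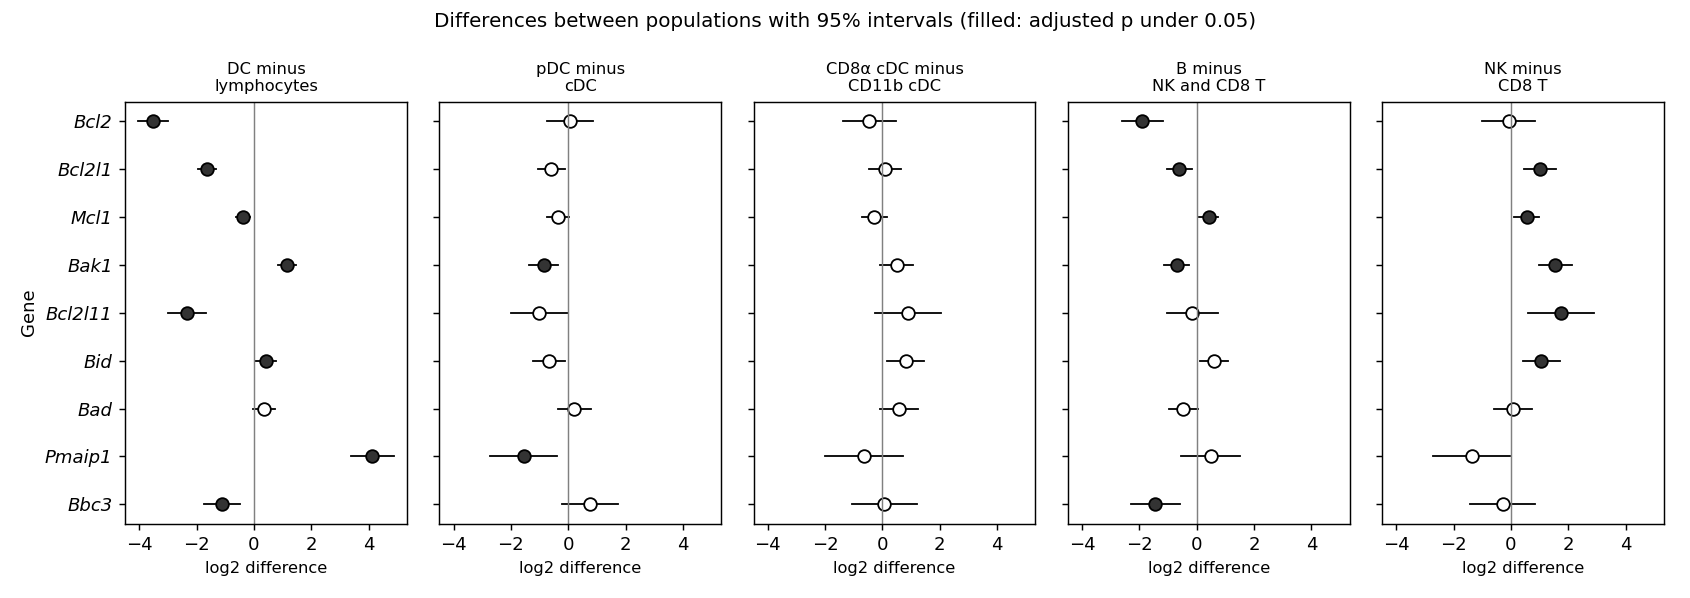
Log2 differences of the 9 genes (points) with 95% intervals (lines) in the 5 comparisons, filled where the adjusted p was under 0.05. The DC comparison spans -3.53 for Bcl2 to 4.13 for Pmaip1, and no point is filled between the cDC subsets.

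By role, the anti-apoptotic Bcl2 and Bcl2l1 were lower in DCs, Mcl1 was lower or higher depending on the probe set, and Bak1 was higher. Of the 5 BH3-only genes Pmaip1 was higher, as was Bid at the edge of the threshold, Bcl2l11 and Bbc3 were lower and Bad was not called. The BH3-only genes ranged from -2.34 for Bcl2l11 to 4.13 for Pmaip1. In NK cells both Bcl2 and Bcl2l11 were high by the probe sets used, at 1233 and 995.5 and at 6037 and 5429.7. These values of different probe sets are set beside each other without comparison of level. Mean Bcl2 in NK, B and CD8 T cells was 365, 419 and 1481 by 1440770_at and 200, 193 and 830 by 1443837_x_at. Mean Bcl2l11 by 1435449_at was 180, 296 and 209 in the same order.

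The genes whose 6 population means followed those of the widest-ranging members most closely were Hsph1, Mfsd14b and Pdk3 for Pmaip1 (Pearson r 0.998, 0.997 and 0.995), Zfp707, Irf2bpl and Kdm5d for Bcl2 (0.999, 0.997 and 0.995) and Rnf169, Rpl13a and Rabgef1 for Bcl2l11 (0.994, 0.983 and 0.982). These are likenesses over 6 points picked from 9380 genes. Kdm5d is Y-linked, and its signal was 134 to 185 on the lymphocyte arrays other than B cell replicate 2 and at most 10.6 elsewhere. Hsph1 encodes a heat shock protein.

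The remaining BCL2 family genes on the list were 14, of which 10 had a probe set and 4 passed the filter. Bcl2l14 was higher in DCs (2.31, SE 0.10, adjusted p = 9.02e-09) with its highest mean in CD8α cDCs, 316 ± 17.2 (SD, n = 2) against 60.4 ± 7.67 in pDCs and 59.9 ± 0.0600 in CD11b cDCs. Its means in NK, B and CD8 T cells were 15.7, 5.65 and 11.3, below the floor of 20. Values set to the floor carry no spread, so the size, SE and adjusted p of this Bcl2l14 difference depend on the floor. Bcl2l2, an anti-apoptotic gene, was higher in pDCs than in cDCs (1.47, SE 0.24, adjusted p = 5.71e-04). Bmf, a BH3-only gene, had its highest mean in B cells, 414 ± 227 (SD, n = 3), and exceeded the mean of NK and CD8 T cells by 2.72 (SE 0.37, adjusted p = 1.74e-04). Bcl2l13 was lower in DCs (-1.02, SE 0.13, adjusted p = 5.27e-05). In the DC comparison 3 of the 4 were called, 2 higher and 1 lower, with a median of 0.62 and 63.6% of all genes called.

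Downstream of the mitochondria, 13 apoptosome, caspase and IAP genes were tested and 9 were called between DCs and lymphocytes, 7 higher in DCs, with a median of 0.35 against -0.02 for all genes and 63.6% called. Apaf1, the scaffold of the apoptosome, was higher in DCs by 1.01 (SE 0.11), and Casp6 by 1.52 (SE 0.17). Casp9, the caspase that the apoptosome activates, was higher in NK than in CD8 T cells by 2.71 (SE 0.22, adjusted p = 5.16e-06). Birc5 (survivin), also a gene of dividing cells, was lower in pDCs than in cDCs (-3.16, SE 0.33), beside a proliferation sum of 2450.0 and 2622 in pDCs and 6633 to 7768 in cDCs. Htra2 was lower in pDCs by 2.01 (-2.01, SE 0.17). Of the 13 genes, 5 were called in that comparison, a share near the 36.7% of all genes. All 5 were lower in pDCs, where 19.1% of all genes were called lower and 17.7% higher. Birc3 was highest in B cells, at 2944 ± 619 (SD, n = 3).

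Of 9 death receptor genes tested, 6 were called between DCs and lymphocytes, 2 higher and 4 lower, with a median of -0.09, a share near the 63.6% of all genes. Fasl, the ligand of FAS, was at 2746 ± 107 in NK cells against 87.2 ± 29.7 in CD8 T cells (SD, n = 2 each), a difference of 5.02 (SE 0.25, adjusted p = 1.42e-07). Fas itself was highest in CD8 T cells, at 117 ± 23.4 (SD, n = 2). Tnfrsf1a was lower in B cells than in NK and CD8 T cells (-3.26, SE 0.19), and Cflar, an inhibitor of caspase 8, was lower in CD8α than in CD11b cDCs (-1.43, SE 0.21, adjusted p = 5.84e-04). Tnfrsf1b and Traf2 were also lower in CD8α cDCs, by -1.86 and -1.11.

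Among 15 regulators of BCL2 family genes and proteins tested, 10 were called between DCs and lymphocytes, 2 higher in DCs and 8 lower, with a median of -0.39, against 63.6% of all genes called, 31.3% higher and 32.3% lower. Foxo1 and Foxo4, transcription factors of which BIM is a known target, were lower in DCs by -1.90 (SE 0.19) and -1.28 (SE 0.13). Pim2, a kinase that phosphorylates BAD, was lower in DCs (-2.35, SE 0.15) and higher in pDCs than cDCs (2.83, SE 0.23, adjusted p = 2.99e-06). Pim1 was lower in pDCs (-1.60, SE 0.22), and Mdm4, an inhibitor of p53, was lower in DCs (-0.98, SE 0.11). Dynll2, a dynein light chain that anchors BMF, was higher in DCs (1.22, SE 0.10).

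Of 14 BCL2-interacting and outer membrane genes tested, 9 were called in the DC comparison, 6 higher and 3 lower, with a median of 0.21, a share near the 63.6% of all genes. Bag3, a co-chaperone, was higher in DCs (1.30, SE 0.23), and Vdac1, a channel of the outer membrane, by 0.55 (SE 0.14). Between NK and CD8 T cells 7 of the 14 were called, against 38.1% of all genes, 6 of them higher in NK cells, among them Bnip3 (1.74, SE 0.20), Tmbim6 (1.02, SE 0.16) and Bnip1 (1.20, SE 0.25), while Becn1 was lower (-1.50, SE 0.19, adjusted p = 1.69e-04).

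**Figure D5:**
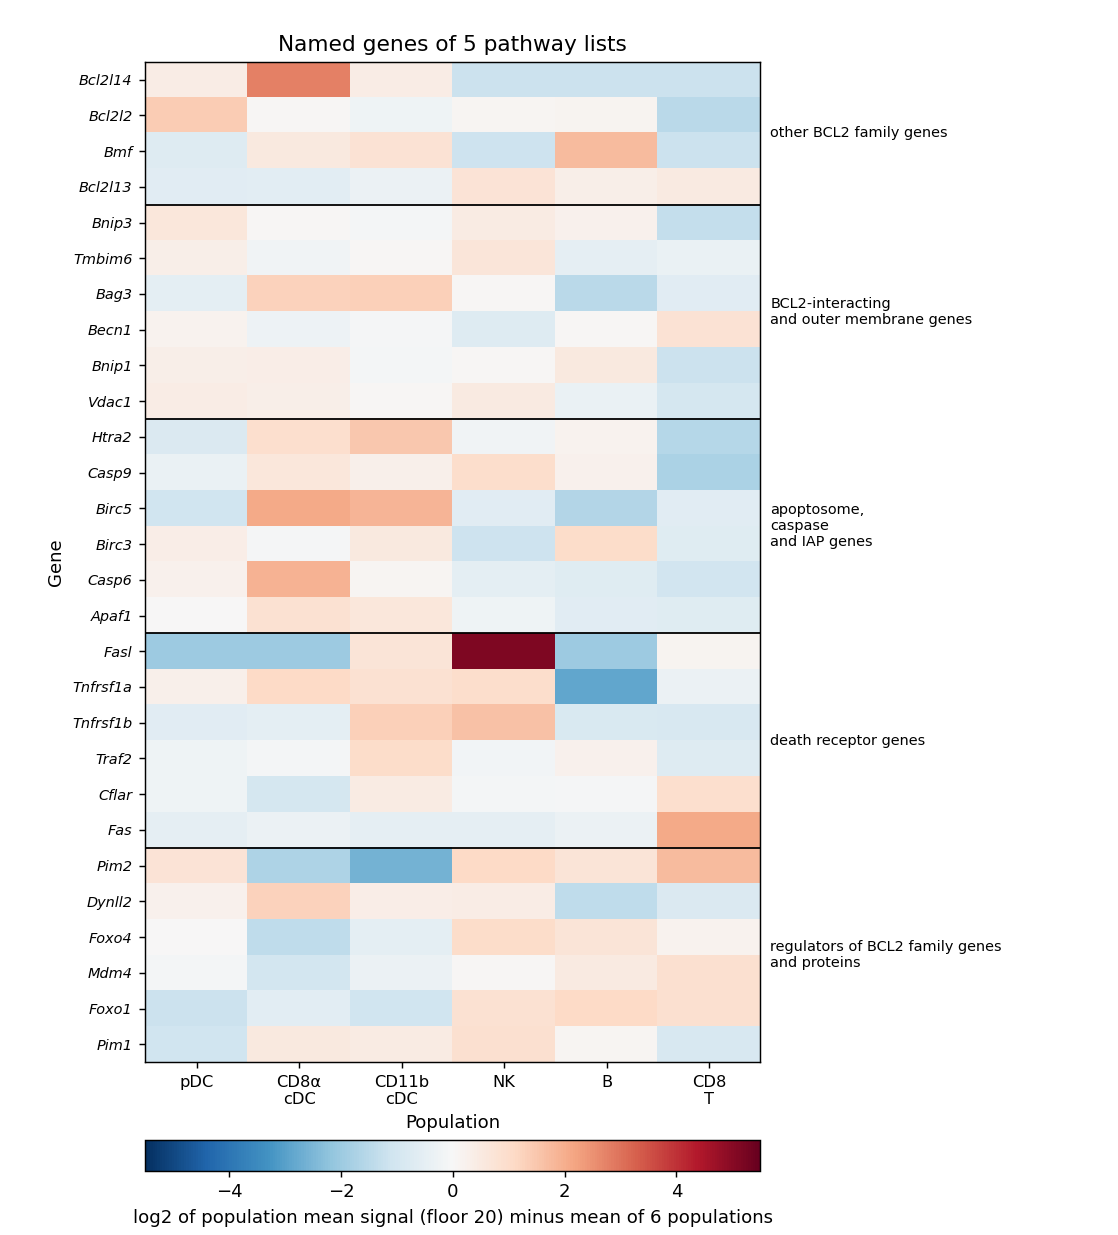
Log2 of the population mean signal, floored at 20, minus the mean of the 6 populations, for the 28 named genes of the 5 pathway lists (rows) in the 6 populations (columns); red is higher and blue lower than the gene's own mean. The darkest red is Fasl in NK cells, and Foxo1 and Pim2 are blue in both cDC columns.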

How the data were processed

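Gene expression was measured on 13 arrays of 6 sorted mouse spleen populations. RNA was amplified in 2 rounds. The deposited values are MAS5 signal intensity on a linear scale, which the authors set to a target of 100 on each array. Of 45101 probe sets, 34958 were annotated to 1 gene. Values were floored at 20 and log2 transformed. A gene was tested when its probe set of highest mean reached 50 in all replicates of at least 1 population. A single limma model (R 4.3.3, limma 3.58.1; 6 population means, 7 residual degrees of freedom) gave 5 comparisons, an F test and 15 pairs; all tests were two-sided with Benjamini-Hochberg adjustment over all genes, and over genes and pairs together for the pairs. The other probe sets of the members were tested in a separate limma fit, with adjustment over all probe sets in it. p-values measure the spread between arrays. The members and gene lists were chosen with earlier results of these data known. The genes named are the members, the 6 tested genes of each pathway list with the largest F (all 4 where fewer passed), and the 3 genes most like each of the 3 members with the widest range of population means. The procedure was tested on simulated data.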

Additional observations from a re-analysis of the deposited data

How the results depend on the processing

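Of the 20 called differences of the members, 6 were called with the same sign in every alternative run for them: Bcl2, Bcl2l1, Bcl2l11, Bak1 and Pmaip1 between DCs and lymphocytes, and Bak1 between NK and CD8 T cells. For Bcl2l1, Bak1 and Pmaip1 these alternatives held no second probe set. Leaving out 1 array at a time, the members called numbered 7 to 8 between DCs and lymphocytes, 1 to 5 between pDCs and cDCs, 0 to 2 between CD8α and CD11b cDCs, 2 to 5 between B cells and the others, 2 to 6 between NK and CD8 T cells, 8 to 9 over all populations and 58 to 84 of the 135 pairs; the counts of 5 and 2 within DCs, the 6 and the 84 came without B cell replicate 1. NK against CD8 T cells gave 3 called members under quantile and under invariant rank normalization. With no filter it gave 2, B cells against the others 1 and pDCs against cDCs 1. With no floor, and without both CD8 T cell arrays, pDCs against cDCs gave 1. A term for the set of sample names, estimated within B cells alone, where it sets replicate 1 apart, gave 5 for DCs against lymphocytes, 5 for pDCs against cDCs and 2 for the cDC subsets. Per the study's methods, the DC and NK duplicates came from 2 independent sorts, but the labels do not say which number belongs to which sort. Same-numbered arrays deviated from their population means with correlations of -0.199 to 0.184, 4 of 15 above 0.1, and were treated as unpaired. With the replicate number as a block, pDCs against cDCs gave 1 (Pmaip1 was lost), DCs against lymphocytes 7 (Bid was lost), NK against CD8 T cells 4 and the pairs 65. Scaling moved the median of all genes between DCs and lymphocytes from -0.02 to 0.01 (quantile) and 0.02 (invariant ranks). Differences that turned sign were Bid between DCs and lymphocytes under the name term (-0.037), Pmaip1 between B cells and the others without B cell replicate 1 (range -0.11 to 0.80 over arrays left out), Bcl2l11 between NK and CD8 T cells with 1435449_at (-0.28), and Mcl1: DCs against lymphocytes 0.51 with 1416881_at, which is also its probe set of largest variation, and 0.025 with 1448503_at; NK against CD8 T cells -0.96, -1.31 and, with 1416880_at, -0.12. The cause was not tested. The checks of each other probe set, scan day as a fixed term within DCs and the settings without both NK or both CD8 T cell arrays were chosen after seeing the data. With 2 or 3 arrays per population, and B and CD8 T cells near the floor for Bak1, small differences are not resolved.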
